A study of Mus musculus with 6 samples.

Results

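The semaphorins are guidance cues, and the plexins and neuropilins are their receptors. All rows whose symbol is Sema followed by 3 to 7 and a letter, Plxna1 to Plxna4, Plxnb1 to Plxnb3, Plxnc1, Plxnd1, Nrp1 or Nrp2 were taken, which gave 31 members among 24391 gene rows: 20 semaphorins, 9 plexins and 2 neuropilins. Members were chosen by symbol, and no measured value entered the rule. The family itself was picked from results of the same comparison, above all the higher counts of Sema3a, Sema3c and Nrp1 with AVP. The levels and folds of these 3 genes are therefore given as a description without a p, and the calls of the other members describe the family and test no claim about it.

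The measurements come from GT1-7, an immortalised mouse line described as resembling neurons that make gonadotropin-releasing hormone (GnRH). It is 1 line, labelled wild type. All 6 cultures had been serum-starved for 12 h before they received arginine vasopressin (AVP), a hypothalamic peptide hormone, at 200 pg/mL (3 cultures) or vehicle (3 cultures) for 6 h. Another label calls the controls untreated, and which is right could not be settled. The labels call the cultures biological replicates of 1 batch, and RNA was sequenced from each.

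Semaphorins bind plexins, which act on small GTPases and the cytoskeleton and so turn or hold back a growing axon. The class 3 members are secreted, and most of them need a neuropilin as the binding partner of a plexin A or D; classes 4 to 6 span the membrane and class 7 is anchored to it by lipid, and these act on plexins directly or on integrins. In the GnRH system, Sema3a with neuropilins and Sema7a with integrin are known from mice to guide the migration of GnRH neurons out of the nose, and human variants in class 3 semaphorin genes have been found in people with absent puberty and loss of smell.

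Total counts were 34908867 to 37418318 per library, and a level of 3 counts equals 0.0802 to 0.0859 CPM (counts scaled to library size). More genes were detected in the AVP libraries (16674 to 16739) than in the control libraries (16166 to 16403), and the nuclear RNA Malat1 was at 1499 to 1725 CPM of total counts against 499 to 1106. Control replicate 1 had 0.995% of its counts on the ribosomal precursor Rn45s, against 0.139 to 0.245% elsewhere. Leaving out Rn45s changed no call of a member. Of 8 pan-neuronal markers, 7 were tested and Stmn2 had at most 1 count in a library, with a summed level of 1020 to 1065 CPM in control and 1116 to 1168 CPM in AVP libraries. At an adjusted p under 0.05 (edgeR), 4 of these 7 rose with AVP (Map2, Tubb3, Elavl4 and Gap43), 0 fell and 3 did not pass. Among all tested genes 28.7% rose and 28.8% fell. Gnrh1, which defines the labelled cell type, was scarce, with 11 to 26 counts in each library. Together the 8 markers of such lines reached 106 to 126 CPM without AVP and 191 to 211 CPM with it. Most of this was Isl1, which rose from a mean of 81.3 CPM (control) to 160 CPM (AVP). Dlx2 and Gper1 also rose, Pou2f1 fell, and Gnrh1, Six6 and Kiss1r did not pass at an adjusted p under 0.05 (edgeR). Otx2 was too scarce to be tested. Of the 5 oligodendrocyte markers Mog and Olig2 had 0 counts, and the list summed to 48.0 to 53.6 CPM in control and 17.1 to 19.2 CPM in AVP libraries, nearly all Mbp. The 5 microglial and 5 endothelial markers summed to at most 1.25 CPM, the astrocyte list to at most 2.33 CPM, and the fibroblast list (Lum at 0) to 20.3 to 24.3 and 8.49 to 9.78 CPM. The part of these markers, of Malat1 and of the number of detected genes in the results was not tested. In bulk RNA, fewer cells of a kind and less RNA per cell cannot be told apart.

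Sequences upstream of the gene start were available from RefSeq (GRCm38.p6) for 26 of the 31 members, in 37 windows of 250 bases before a start. Those of Sema3a, Sema3d, Sema3e and Nrp1 are shown because these genes rose with AVP, because the first 3 are neighbours on 1 chromosome and because their windows hold no exon of the gene in GENCODE M21. Letters run 5′ to 3′ on the gene's strand, the last base lies next to the start, and capitals mark matches to the searched motifs. The RefSeq starts of Sema3a and Nrp1 lie inside the longer genes that GENCODE annotates, not at their first base.
Sema3a (chr5:13396534-13396783, plus strand): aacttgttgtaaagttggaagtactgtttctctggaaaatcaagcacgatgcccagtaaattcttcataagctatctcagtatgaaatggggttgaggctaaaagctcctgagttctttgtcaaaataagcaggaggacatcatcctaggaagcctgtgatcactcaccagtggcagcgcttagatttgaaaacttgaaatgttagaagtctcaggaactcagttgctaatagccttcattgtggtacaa
Sema3d (chr5:12382916-12383165, plus strand): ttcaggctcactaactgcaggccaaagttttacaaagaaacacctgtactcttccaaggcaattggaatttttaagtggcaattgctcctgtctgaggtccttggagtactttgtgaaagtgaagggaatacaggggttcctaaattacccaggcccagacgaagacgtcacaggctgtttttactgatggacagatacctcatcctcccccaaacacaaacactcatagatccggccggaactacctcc
Sema3e (chr5:14025026-14025275, plus strand): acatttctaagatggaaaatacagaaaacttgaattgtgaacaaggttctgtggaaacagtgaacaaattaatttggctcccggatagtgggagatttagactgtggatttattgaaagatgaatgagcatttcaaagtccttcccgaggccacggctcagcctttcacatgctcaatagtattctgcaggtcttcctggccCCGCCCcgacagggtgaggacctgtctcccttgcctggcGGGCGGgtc
Nrp1 (chr8:128358823-128359072, plus strand): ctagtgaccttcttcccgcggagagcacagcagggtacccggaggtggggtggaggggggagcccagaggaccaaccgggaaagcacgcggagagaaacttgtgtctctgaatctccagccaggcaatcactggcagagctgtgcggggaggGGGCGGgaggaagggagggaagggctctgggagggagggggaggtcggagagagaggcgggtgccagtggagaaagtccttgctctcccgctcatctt

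Both strands were searched for the cAMP response element TGACGTCA, the AP-1 motif TGANTCA, the ATF4 composite element TGATGNAA, the E-box CACGTG, the GC box GGGCGG, the TATA box TATAAA and the SMAD palindrome GTCTAGAC. The Sema3a and Sema3d windows held none of them and had a GC content of 40.8 and 46.8%. The Sema3e window held GC boxes that begin 48 and 9 bases before the start, and the Nrp1 window held 1 that begins 98 bases before it. GC boxes were in 27 of the 37 member windows (73.0%), against 56.7% of 13540 windows of tested genes and 33.0% of all 32536 windows. The median GC content of these 3 sets was 64, 60 and 52.4%. Some members gave several windows, which are not independent. The part of base composition in the GC box shares was not tested. The cAMP response element, the ATF4 element, the TATA box and the SMAD palindrome matched in 0 member windows, where 2.58, 2.02, 6.37 and 0.199% of the windows of tested genes held them. The AP-1 motif was found upstream of Sema4c, Sema4d and Sema6b, in 3 of the 37 member windows (8.1%, against 4.28% of windows of tested genes). The E-box was found upstream of Sema4b and Sema6d, in 2 of the 37 (5.4%, against 8.06%). A match is a run of letters and not a binding site, and no searched motif was common to the 4 windows shown. The window of Sema3c lies within an annotated exon and is not shown.

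Of the 31 members, 29 had enough counts to be tested in the fit of all 14163 tested genes, and Sema6d and Plxnb3 had not. At an adjusted p under 0.05 (edgeR's quasi-likelihood test with Benjamini-Hochberg adjustment over all tested genes), 13 members rose and 8 fell with AVP, and 8 did not pass. Among all tested genes 28.7% rose and 28.8% fell, 57.5% together. Calls were thus the common state in these libraries, and a member that passed is not set apart by it. For 21 of the 29 members no AVP value lay within the control range or the reverse, which held for 63.4% of all tested genes. The median log2 fold change (AVP minus control) of the 29 was 0.26, beside 0.01 for all tested genes, and the median absolute change was 0.38 beside 0.32. An absolute log2 fold change of at least 1 was reached by 7 members: Sema3c, Sema3a, Nrp1, Plxna4, Sema3d, Sema3g and, at -1.0, Sema5b. Of the 14163 tested genes, 1496 reached it. Sema3c, Sema3a and Nrp1 led to the choice of the family, so the count of 7 was partly fixed by that choice.

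**Figure D1:**
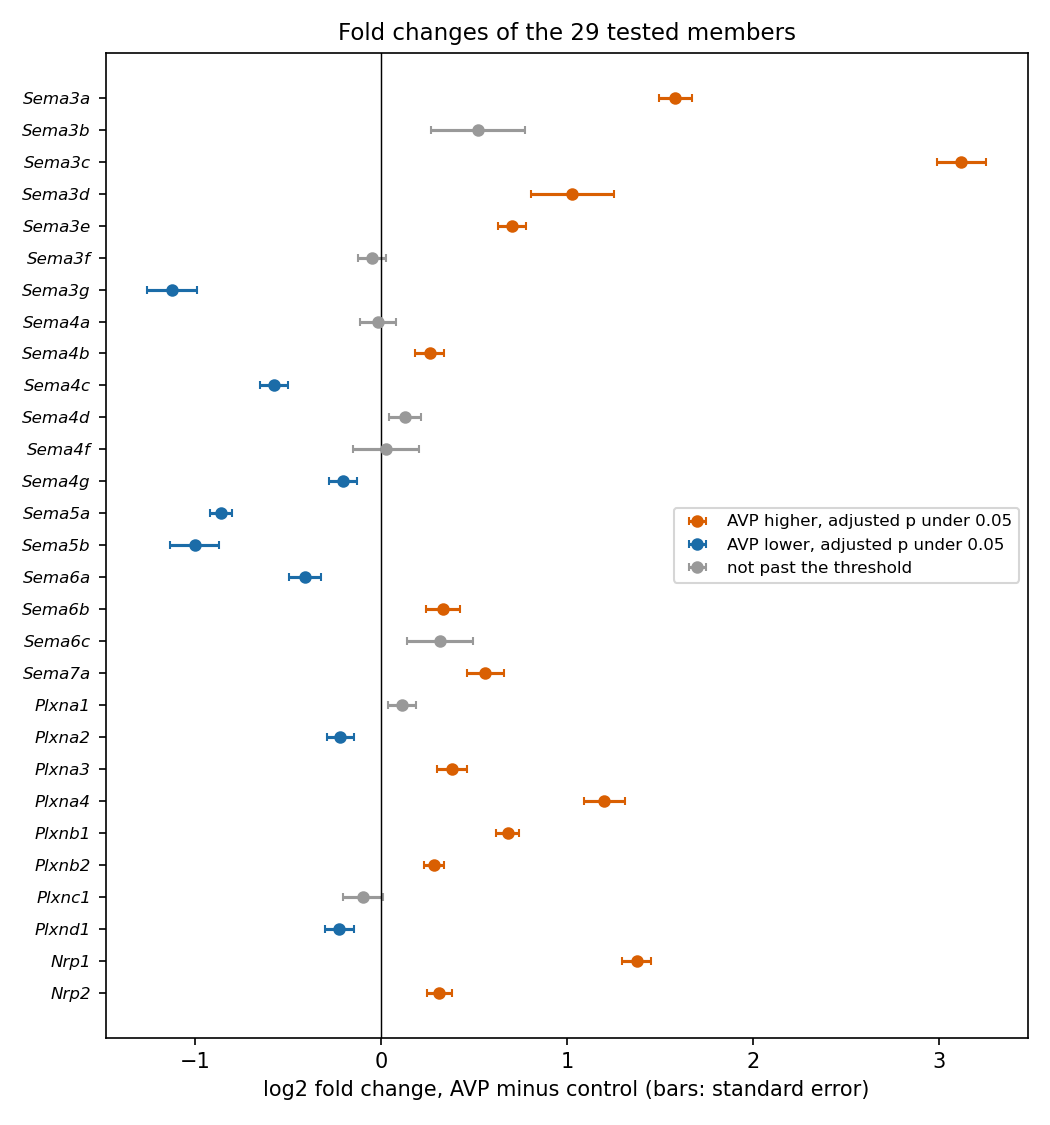
Log2 fold change (AVP minus control, horizontal axis) of the 29 tested semaphorin, plexin and neuropilin genes (vertical axis), with the standard error of the fit as bars and colour for the call at an adjusted p under 0.05. Sema3c lies farthest to the right at 3.12, Sema3g farthest to the left at -1.12, and 8 members are grey, not past the threshold.

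Sema3c had 2.97 to 3.73 CPM in control and 25.7 to 32.6 CPM in AVP cultures, and the secreted class 3 to which it belongs held both the largest rise and the largest fall of the 29 tested members. All 7 class 3 genes were tested, 4 rose, 1 fell and 2 did not pass, and their log2 fold changes ran from -1.12 to 3.12. Sema3c, which binds neuropilins and plexin D1 and is known from mice for its part in the outflow tract of the heart, measured 3.73, 3.60 and 2.97 CPM in control replicates 1, 2 and 3 and 32.6, 31.4 and 25.7 CPM in AVP replicates 1, 2 and 3. Every AVP culture was far above every control culture, and the fitted difference was a log2 fold change of 3.12 (SE 0.13), or 8.69-fold. Sema3a, the repulsive cue that acts through Nrp1 and plexins A, stood at 17.1, 20.6 and 20.5 CPM in the control cultures and 59.8, 60.9 and 53.7 CPM in the AVP cultures, a log2 fold change of 1.58 (SE 0.09). Here too the groups were apart, by more than the spread within either.

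Sema3e, which is known to bind plexin D1 without a neuropilin, rose from 31.4, 34.5 and 32.4 CPM in the control cultures to 56.1, 55.1 and 49.1 CPM in the AVP cultures (log2 fold change 0.71, SE 0.08, adjusted p = 1.09e-06). Sema3d, a cue that binds Nrp1, was scarce. It measured 1.80, 1.88 and 3.12 CPM in control replicates 1, 2 and 3 and 4.98, 4.97 and 3.92 CPM in AVP replicates 1, 2 and 3 (log2 fold change 1.03, SE 0.23, adjusted p = 0.00105), and control replicate 3 was the highest of its group. In all of Sema3a, Sema3c, Sema3d and Sema3e the lowest AVP culture was replicate 3, and it still exceeded every control culture. Leaving out any 1 culture kept the calls of Sema3d and Sema3e, with log2 fold changes between 0.89 and 1.32 for Sema3d and between 0.67 and 0.76 for Sema3e.

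Sema3g (chromosome 14, 31217860 to 31230352, plus strand), which binds Nrp2 and is best known from blood vessels, was the member of the class that fell. It measured 11.7, 10.7 and 10.5 CPM in control replicates 1, 2 and 3 and 4.76, 4.63 and 5.78 CPM in AVP replicates 1, 2 and 3 (log2 fold change -1.12, SE 0.13, adjusted p = 3.66e-06) and was 2.17-fold lower with AVP, without overlap. Sema3f, the ligand of Nrp2 and plexin A3 that limits dendritic spines in mice, stood at 32.3, 32.9 and 30.5 CPM in the control cultures and 30.1, 30.7 and 32.0 CPM in the AVP cultures. The 2 groups overlapped for Sema3f, and the log2 fold change was -0.05 (SE 0.08, adjusted p = 0.627). Sema3b, known as a candidate tumour suppressor, stood at 1.96, 1.604 and 1.07 CPM in the control cultures and 2.15, 2.33 and 2.19 CPM in the AVP cultures. Its groups did not overlap, but with 37 to 88 counts per library the change did not pass (log2 fold change 0.52, SE 0.25, adjusted p = 0.0903); without control replicate 1 it did (adjusted p = 0.0311 in edgeR).

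**Figure D2:**
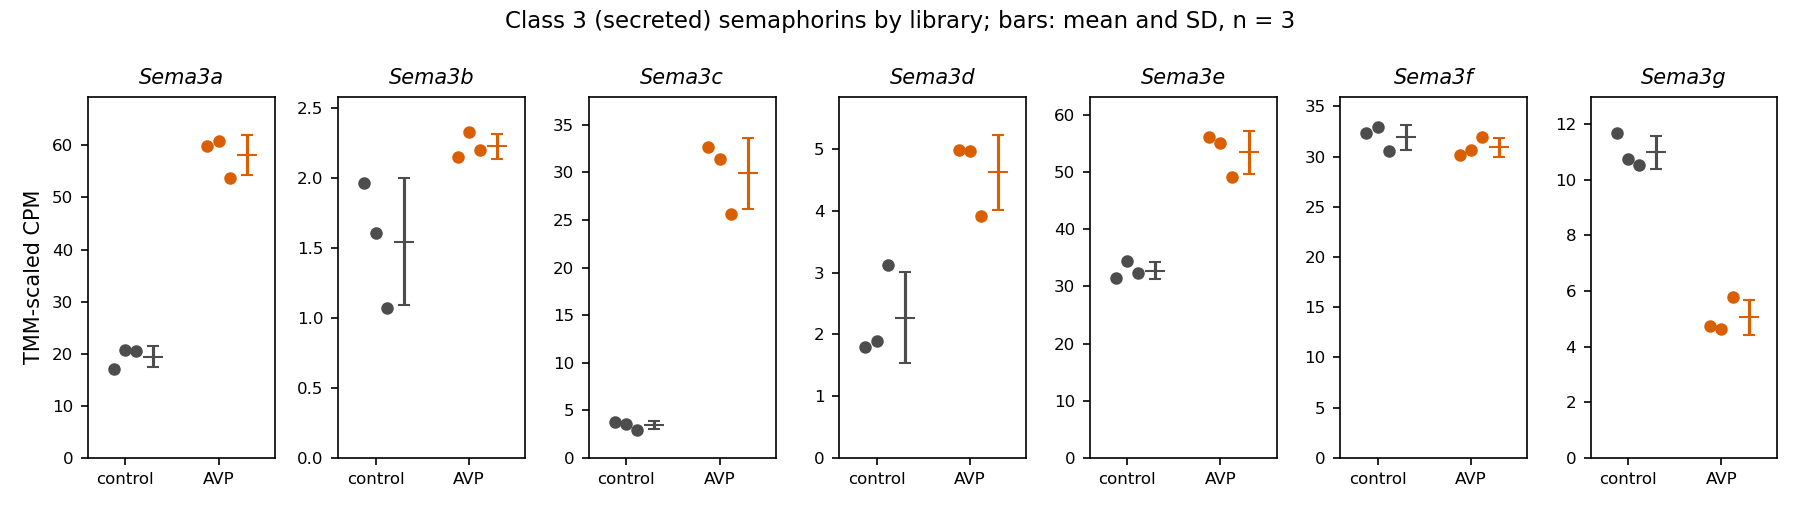
TMM-scaled CPM (vertical axes from 0, 1 panel per gene) of the 7 class 3 semaphorins in the 3 control and 3 AVP libraries (points, replicates 1 to 3 from left to right), with mean and SD beside them. AVP points lie above all control points for Sema3a, Sema3b, Sema3c, Sema3d and Sema3e, below them for Sema3g, and among them for Sema3f.

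Because the members differ in length, the shares of the class 3 genes were taken per kilobase of exon (the union of all annotated exons). On that scale the class 3 genes summed to 14.6 ± 0.399 CPM per kilobase in control and 22.2 ± 0.957 in AVP libraries (SD, n = 3). Sema3f made up 41.5 to 42.7% of this sum in control cultures and 25.4 to 29.1% in AVP cultures. Sema3c went from 2.94 to 3.59% to 17.0 to 20.04%, and Sema3a from 8.48 to 10.4% to 18.4 to 19.3%, while Sema3g went from 15.8 to 17.7% to 4.49 to 6.03%. Sema3e held 23.3 to 24.8% in control and 25.1 to 26.5% in AVP cultures. The class thus had Sema3f as its most abundant transcript in control cultures, whereas Sema3e was above Sema3f in AVP replicates 1 and 2 and below it in replicate 3. The order in AVP cultures depends on the length used. With the longest coding transcript in place of the union, Sema3f still led in control cultures (43.2 to 45.1%), but in AVP cultures Sema3e (21.8 to 23.0%) was below Sema3f (25.0 to 28.6%) and Sema3a held 27.6 to 28.9%.

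The 4 class 3 genes that rose lie near each other on chromosome 5 (GRCm38, GENCODE M21). The choice of members did not use position. Sema3a and Sema3c are among the 4, however, and their rises led to the choice of the family, so the pattern was partly fixed by that choice. Sema3d (chromosome 5, 12383385 to 12588948, plus strand), Sema3a (chromosome 5, 13125414 to 13602565, plus strand), Sema3e (chromosome 5, 14025276 to 14256689, plus strand) and Sema3c (chromosome 5, 17574281 to 17730268, plus strand) follow each other within 5.19 Mb from the first start to the last. The other class 3 genes are elsewhere: Sema3b and Sema3f on chromosome 9, Sema3g on chromosome 14. Between the outermost starts, 7 other genes were tested, of which 2 rose, 1 fell and 4 did not pass. These included Cacna2d1, a calcium channel subunit gene (log2 fold change 0.28, SE 0.07, adjusted p = 0.00285), and Pclo, a presynaptic scaffold gene (log2 fold change -0.58, SE 0.09, adjusted p = 1.44e-04); the third, Speer4e, belongs to a repeated family whose counts are uncertain. Over the rest of the 10 Mb on either side of the Sema3a start, 18 genes rose, 13 fell and 18 did not pass among 49 tested. Neighbours of the 4 genes thus rose, fell or did not pass. The median log2 fold change was 0.57 for the 7 genes between the outermost starts and 0.08 for the 49. The 4 of the 7 that did not pass were scarce, with means of 0.23 to 1.66 CPM. Their log2 fold changes were all above 0, from 0.39 to 0.76. This arrangement was noticed after the values were seen and has no test.

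**Figure D3:**
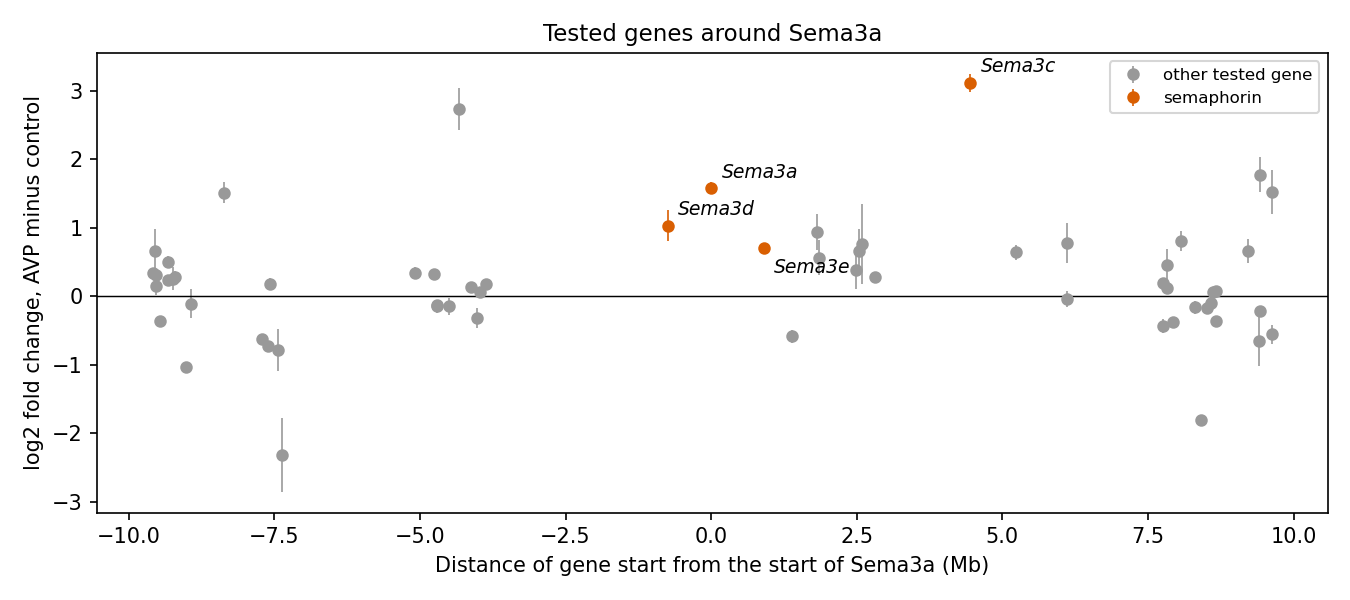
Log2 fold change (AVP minus control, vertical axis, bars: SE) of the 60 tested genes whose start lies within 10 Mb of the start of Sema3a, against the distance from it in Mb (horizontal axis). The 4 semaphorin genes (orange) lie between 0.71 and 3.12, and the other genes (grey) scatter on both sides of 0.

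Among the membrane semaphorins both class 5 genes fell, and Sema7a had the largest rise of those tested. Of 13, 12 were tested, 3 rose, 5 fell and 4 did not pass, with log2 fold changes from -1.0 to 0.56. The class 5 members carry thrombospondin repeats. Sema5a (chromosome 15, 32244810 to 32696341, plus strand), a ligand of plexin B3 and of plexins A in the mouse retina, fell from 166, 151 and 152 CPM in control replicates 1, 2 and 3 to 80.7, 91.9 and 85.6 CPM in AVP replicates 1, 2 and 3 (log2 fold change -0.86, SE 0.06, adjusted p = 1.29e-08). Sema5b (chromosome 16, 35541145 to 35664732, plus strand), its relative, stood at 19.5, 20.8 and 17.7 CPM in the control cultures and 8.38, 8.78 and 11.9 CPM in the AVP cultures (log2 fold change -1.0, SE 0.13, adjusted p = 9.26e-06). In each of the pair the highest AVP culture lay well under the lowest control culture, and AVP levels were 1.81-fold and 2.00-fold lower.

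Class 4 was led by a fall of Sema4c, a ligand of plexin B2. Sema4c measured 45.7, 49.5 and 47.0 CPM in control replicates 1, 2 and 3 and 32.2, 29.9 and 33.3 CPM in AVP replicates 1, 2 and 3 (log2 fold change -0.57, SE 0.07, adjusted p = 7.48e-06), without overlap. Sema4g, which shares plexin B2 as receptor, stood at 43.3, 44.1 and 46.2 CPM in the control cultures and 37.8, 41.8 and 36.5 CPM in the AVP cultures, a small fall (log2 fold change -0.20, SE 0.07, adjusted p = 0.0289). That call was lost without control replicate 2 (adjusted p = 0.0629) or 3 (0.0579), without AVP replicate 1 (0.0841) or 3 (0.111), and with library size alone (0.0667). Sema4b rose slightly, from 28.7, 27.3 and 26.5 CPM in the control cultures to 33.4, 34.2 and 31.6 CPM in the AVP cultures (log2 fold change 0.26, SE 0.08, adjusted p = 0.00911), without overlap. Sema4d, the ligand of plexin B1 also known as CD100 on lymphocytes, stood at 29.4, 26.3 and 26.9 CPM in the control cultures and 27.5, 32.2 and 30.7 CPM in the AVP cultures, with overlap and no call (log2 fold change 0.13, SE 0.09, adjusted p = 0.214). Sema4a, known from T cells and retina, and Sema4f, known from neurons, overlapped as well. Sema4a stood at 33.1, 28.9 and 27.8 CPM in the control cultures and 32.1, 30.7 and 26.0 CPM in the AVP cultures (adjusted p = 0.905). Sema4f stood at 5.48, 4.05 and 3.98 CPM in the control cultures and 5.20, 4.39 and 4.20 CPM in the AVP cultures (adjusted p = 0.906).

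Class 6, whose members bind plexins A, and class 7 moved in both directions. Sema6a, a ligand of plexins A2 and A4, fell from 30.7, 32.2 and 30.1 CPM in the control cultures to 21.3, 25.0 and 23.8 CPM in the AVP cultures (log2 fold change -0.41, SE 0.09, adjusted p = 7.60e-04). Sema6b, a ligand of plexin A4, stood at 40.7, 34.6 and 35.9 CPM in the control cultures and 41.5, 46.7 and 52.0 CPM in the AVP cultures (log2 fold change 0.33, SE 0.09, adjusted p = 0.00489), and its lowest AVP culture was only just above its highest control culture. Sema6c stood at 5.20, 3.97 and 3.46 CPM in the control cultures and 5.63, 5.37 and 4.75 CPM in the AVP cultures, which overlapped (log2 fold change 0.32, SE 0.18, adjusted p = 0.139), though the change passed without control replicate 1 (adjusted p = 0.0268). Sema7a, the lipid-anchored ligand of plexin C1 and integrin beta 1 that mouse GnRH neurons need for their migration, measured 18.3, 21.8 and 18.8 CPM in control replicates 1, 2 and 3 and 26.1, 28.8 and 32.1 CPM in AVP replicates 1, 2 and 3 (log2 fold change 0.56, SE 0.10, adjusted p = 1.89e-04). All AVP cultures exceeded all control cultures for Sema7a, by a fitted 1.48-fold.

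Sema6d, a ligand of plexin A1 known from the chick heart, had 0 counts in all 3 control libraries and 11, 16 and 8 counts in AVP replicates 1, 2 and 3. The 0 in control allows up to 0.0278 CPM over the group, and the measured AVP level of 0.320 CPM was 11.5-fold above that limit. These are few reads from a gene that was below the filter. The limit covers counting error of the control group only, and the error of the AVP counts is not included. With no filter the gene was tested and passed (adjusted p = 0.000303 in edgeR).

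**Figure D4:**
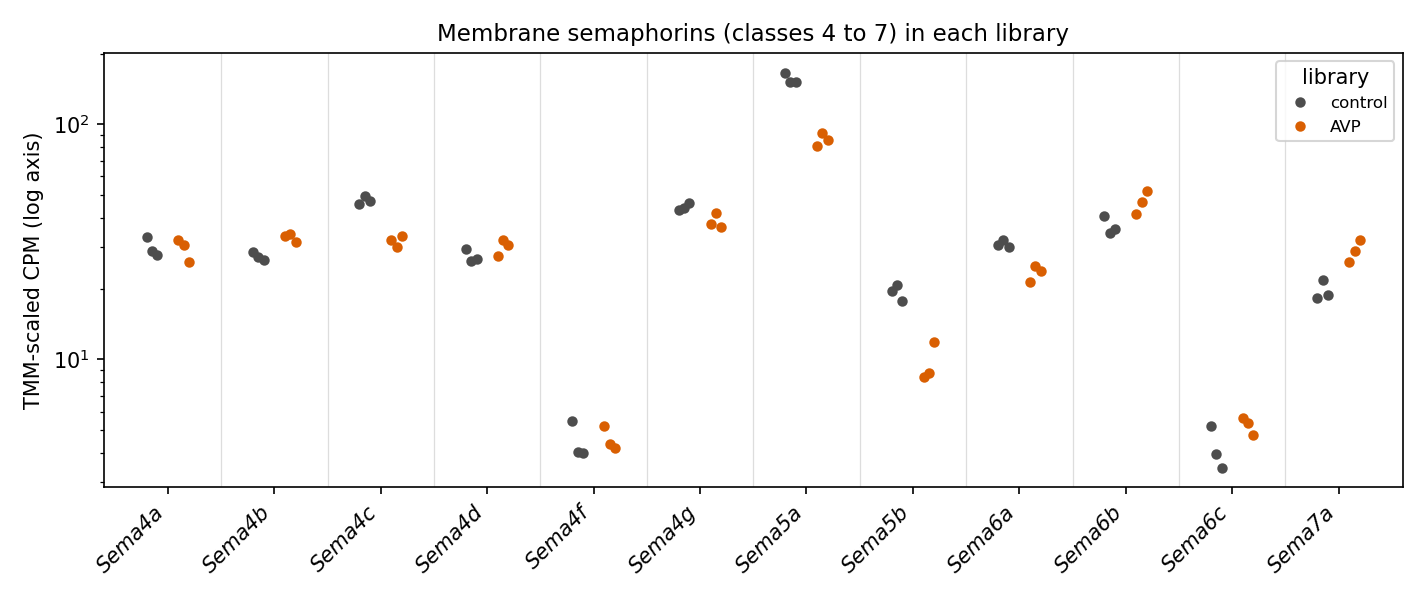
TMM-scaled CPM (vertical log axis) of the 12 tested membrane semaphorins (horizontal axis) in the 3 control (grey) and 3 AVP (orange) libraries. Orange points lie fully below grey ones for Sema4c, Sema4g, Sema5a, Sema5b and Sema6a and fully above them for Sema4b, Sema6b and Sema7a. Sema6d is not drawn because its control counts were 0.

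Among the receptors, both neuropilins rose. Nrp1 (chromosome 8, 128358604 to 128503363, plus strand), the binding receptor for Sema3a and also for the growth factor VEGF-A, measured 23.8, 23.2 and 24.8 CPM in control replicates 1, 2 and 3 and 67.3, 61.8 and 57.0 CPM in AVP replicates 1, 2 and 3. No AVP culture came near a control culture, with a log2 fold change of 1.38 (SE 0.08), or 2.59-fold. Nrp2, which prefers Sema3f and Sema3g, rose from 39.0, 36.0 and 37.0 CPM in the control cultures to 45.9, 46.6 and 46.9 CPM in the AVP cultures (log2 fold change 0.31, SE 0.07, adjusted p = 0.00105). The change of Nrp2 was small, and it did not pass against a fold of 1.2 (adjusted p = 0.207). The same held for the other small changes called, those of Plxnb2 (adjusted p = 0.319), Plxna3 (0.0696), Plxna2 (0.727), Plxnd1 (0.696), Sema4b (0.471), Sema4g (0.796) and Sema6b (0.196).

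The 4 plexins A, which carry the signal for neuropilins and for class 6, did not move as 1 group. Plxna4 (chromosome 6, 32144268 to 32588192, minus strand), which signals for Sema3a in sensory and sympathetic axons of mice, measured 12.6, 10.4 and 9.75 CPM in control replicates 1, 2 and 3 and 23.7, 27.3 and 24.3 CPM in AVP replicates 1, 2 and 3 (log2 fold change 1.2, SE 0.11, adjusted p = 2.42e-07), and the lowest AVP culture was far above the highest control culture. Plxna3, which acts with Nrp2 for Sema3f, stood at 25.7, 27.3 and 28.7 CPM in the control cultures and 33.3, 35.8 and 37.4 CPM in the AVP cultures (log2 fold change 0.38, SE 0.08, adjusted p = 7.97e-04). Plxna2 stood at 52.6, 53.4 and 57.8 CPM in the control cultures and 44.7, 51.1 and 45.1 CPM in the AVP cultures and was lower with AVP (log2 fold change -0.22, SE 0.07, adjusted p = 0.0184), a call lost without AVP replicate 1 (adjusted p = 0.0766) or 3 (0.0669). Plxna1 stood at 75.1, 74.6 and 76.2 CPM in the control cultures and 71.2, 89.1 and 84.2 CPM in the AVP cultures. Its AVP replicate 1 was under every control culture and the other 2 above, and the gene did not pass (log2 fold change 0.11, SE 0.07, adjusted p = 0.198) unless AVP replicate 1 was left out (adjusted p = 0.0177).

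Plexins B, the receptors for class 4, rose where they could be tested. Plxnb2 measured 462, 427 and 418 CPM in control replicates 1, 2 and 3 and 533, 556 and 503 CPM in AVP replicates 1, 2 and 3 (log2 fold change 0.28, SE 0.05, adjusted p = 3.55e-04), and Plxnb1, the receptor of Sema4d, rose from 51.1, 52.2 and 54.6 CPM in the control cultures to 80.9, 86.1 and 86.4 CPM in the AVP cultures (log2 fold change 0.68, SE 0.06, adjusted p = 1.61e-07). Plxnb3, the receptor of Sema5a, had 2 to 6 counts in each library, 12 in each group, and was not tested. Plxnc1, the receptor of Sema7a, stood at 22.4, 17.8 and 20.5 CPM in the control cultures and 16.9, 20.4 and 19.5 CPM in the AVP cultures and did not pass (log2 fold change -0.09, SE 0.11, adjusted p = 0.476). Plxnd1, the receptor of Sema3e and Sema3c, stood at 77.5, 78.6 and 64.7 CPM in the control cultures and 59.7, 64.7 and 64.9 CPM in the AVP cultures. Control replicate 3 lay within the AVP range, and the fall of Plxnd1 (log2 fold change -0.22, SE 0.08, adjusted p = 0.0200) was lost without control replicate 1 (adjusted p = 0.0558) or 2 (0.106) or AVP replicate 1 (0.0850).

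**Figure D5:**
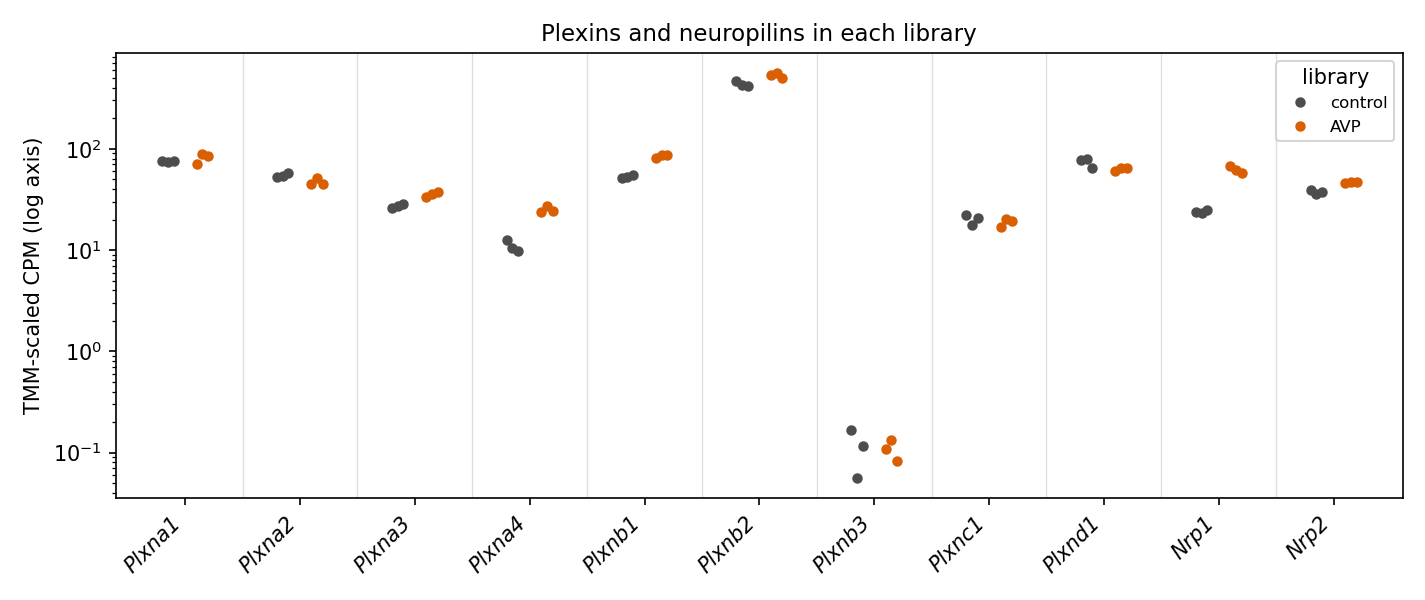
TMM-scaled CPM (vertical log axis) of the 9 plexins and 2 neuropilins (horizontal axis) in the 3 control (grey) and 3 AVP (orange) libraries. Plxnb2 spans 418 to 556 CPM and Plxnb3 0.0563 to 0.166 CPM, not scaled by length, and the widest gaps between groups are those of Nrp1 and Plxna4.

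Set side by side by known partnership, ligand and receptor transcripts differed in different ways. For Sema3a and its binding receptor Nrp1 the log2 fold changes were 1.58 and 1.38, and for the plexins A they were 0.11 (Plxna1, not past), -0.22 (Plxna2), 0.38 (Plxna3) and 1.2 (Plxna4). The rises of Sema3a and Nrp1 led to the choice of the family, so that both rose was fixed by that choice. Sema3g and Nrp2 had -1.12 and 0.31. Sema3f had -0.05 (not past), beside 0.31 for Nrp2 and 0.38 for Plxna3. For Sema3e and its receptor Plxnd1 the differences were 0.71 and -0.22. The ligand Sema4c and its receptor Plxnb2 had -0.57 and 0.28, and Sema7a and Plxnc1 had 0.56 and -0.09. For Sema4d and Plxnb1 it was the receptor that rose (0.68), while the ligand did not pass (0.13). Whether the 2 differences of a pair differ from each other was not tested.

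Per kilobase of exon, Plxnb2 had by far the most transcripts of the family, 56.4 ± 3.04 CPM per kilobase in control and 68.7 ± 3.41 in AVP libraries (SD, n = 3). In control cultures Sema4c (10.3 ± 0.426), Plxnd1 (10.1 ± 1.06) and Sema6b (9.34 ± 0.816) followed, and these neighbours lay within each other's spread. Next came Sema5a (8.35 ± 0.446) and Plxna1 (8.32 ± 0.0882), which could not be told apart either. With AVP the second place went to Sema6b (11.8 ± 1.32), and Sema4c (6.93 ± 0.379) and Sema5a (4.61 ± 0.300) stood in places 7 and 13. Nrp1 went from place 20 to place 8 of 31 and Sema3c from place 27 to place 17. The order depends on the length used, and with the longest coding transcript Sema5a was second and Nrp1 in place 11 in control cultures.

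Of 85 other gene symbols of semaphorin signalling in 7 lists, 84 had a row and 75 were tested: 29 rose, 23 fell and 23 did not pass, with a median log2 fold change of 0.13. The symbol without a row was Vegfd, the newer name of Figf, and that gene had its row as Figf. The called genes were 69.3% of the 75, beside 57.5% of all tested genes. Those named below come from the 3 of each list with the highest mean CPM, from 8 genes set to be named whatever their values and from a few named after their values were seen (Figf, Dpysl3, Dpysl4, Dpysl5 and Mical1). Among co-receptors and adhesion partners 2 rose and 4 fell of 12 tested (median 0.12). Itgb1, the integrin beta 1 that binds Sema7a, was abundant and did not pass (585 ± 3.19 CPM (control) against 613 ± 6.74 (AVP); SD, n = 3; adjusted p = 0.215). Kdr, a VEGF receptor that pairs with Nrp1, fell from a control mean of 319 ± 15.1 CPM to 263 ± 17.0 (log2 fold change -0.28, SE 0.06, adjusted p = 6.41e-04). L1cam, an adhesion molecule that Sema3a signalling through Nrp1 uses, fell from a control mean of 31.1 ± 1.39 CPM to 25.0 ± 2.27 (log2 fold change -0.31, SE 0.09, adjusted p = 0.00636), and Nrcam, its relative that acts with Nrp2, fell by 0.83 on the log2 scale. Ptk7, a pseudokinase receptor, rose by 0.27, and Met, which pairs with plexin B1, was at 4.84 ± 0.538 CPM (control) against 5.46 ± 0.935 (AVP) and did not pass.

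VEGF ligands compete for neuropilins, and 3 of the 4 tested fell while 1, Figf, rose (median -0.49). Vegfa went from a control mean of 485 ± 31.0 CPM to 265 ± 32.2 (log2 fold change -0.87, SE 0.08, adjusted p = 9.41e-07), opposite to Nrp1. Vegfb fell by 0.77 and Pgf by 0.20 on the log2 scale. Of 8 tested proteases that cut semaphorins or their receptors 4 rose and 1 fell (median 0.24). Furin, which processes class 3 semaphorins, rose from a control mean of 206 ± 6.14 CPM to 264 ± 7.23 (log2 fold change 0.35, SE 0.05, adjusted p = 1.97e-05), Pcsk6, another convertase, fell by 0.94, and the sheddase gene Adam10 did not pass (log2 fold change 0.03).

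All 10 CRMP and MICAL effectors passed, 6 higher and 4 lower (median 0.26), where 57.5% of all tested genes passed. The CRMPs bind tubulin and act downstream of Sema3a, and they moved both ways. Crmp1 fell from a control mean of 324 ± 14.7 CPM to 224 ± 11.2 (log2 fold change -0.53, SE 0.05, adjusted p = 7.79e-07), as did Dpysl2, by 0.44, and Dpysl5, by 0.99 on the log2 scale, while Dpysl3 and Dpysl4 rose by 0.91 and 0.54. Of the actin-oxidising enzymes, Mical3 and Mical2 rose by 0.27 and 0.28, and Mical1 fell by 1.58. Of 15 kinases 6 rose and 3 fell (median 0.14). Fyn, the kinase that acts at plexins A for Sema3a, fell from a control mean of 187 ± 7.03 CPM to 100.3 ± 1.25 (log2 fold change -0.90, SE 0.05, adjusted p = 1.07e-09), Rock1 rose by 0.20, and Rock2 did not pass.

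Of 17 small GTPases and their regulators 6 rose and 5 fell (median 0.02). Rhoa fell from a control mean of 484 ± 12.4 CPM to 395 ± 8.47 (log2 fold change -0.29, SE 0.05, adjusted p = 7.62e-05), while Rac1 did not pass. Of 9 adaptors and further binding partners 4 rose and 3 fell (median 0.02). Gipc1, which binds the tail of Nrp1, fell by 0.35, Ranbp9 rose by 0.21, and Plcg1 and the actin-severing Cfl1 did not pass. The signalling genes around the family thus moved both ways in each of the 7 lists. All tested genes did so too (28.7% rose and 28.8% fell), and the lists are not set apart by it.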

How the data were processed

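Gene expression was measured by RNA sequencing in 6 GT1-7 cultures, 3 with AVP and 3 controls, grouped by sample title. The tables deposited by the authors give raw counts, 1 file for each sample and 1 row for each gene symbol, with no normalization. Total RNA came from TRIzol extraction and Illumina sequencing, per the labels' protocols. Per the submitters' processing notes the builds were mm10 and GRCm38; the sources used here name no aligner, counting tool, annotation or use of strand, so counts of overlapping genes and near-identical copies are uncertain. Only short RNAs overlap member exons in the tables, at a mean of at most 0.00453 CPM. The 27 symbols turned into dates by a spreadsheet were kept as unnamed rows.

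Counts were fitted with edgeR 4.0.16 in R 4.3.3: filterByExpr (minimum count 10), TMM factors, the robust quasi-likelihood F test of AVP against control in 1 model of all 6 samples and Benjamini-Hochberg adjustment over 14163 genes (threshold 0.05). The SE was obtained by dividing the size of the log2 fold change by the root of its F value. CPM are TMM-scaled, except for library measures and Sema6d, which use total counts. The fit was tested on simulated data in which far fewer genes changed than were called here. Its behaviour with changes as widespread as these was not tested. Within a group every pair of libraries was further apart than counting noise allows (chi-square over its degrees of freedom at least 7.17), so none was treated as a duplicate. Control replicate 1 gave 22.5 and 33.4 against control replicates 2 and 3, and the other pairs gave 7.17 to 10.7. Rn45s was included, and its part in these values was not tested. Floors of 3 counts cover counting error only, because reads can be copies of 1 molecule.

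The members and lists were chosen with earlier results of these data known. All members are named. Of each list the 3 with the highest mean CPM were named, and Itgb1, Met, L1cam, Nrcam, Vegfa, Furin, Dpysl2 and Gipc1 whatever their values; Figf, Dpysl3, Dpysl4, Dpysl5, Mical1 and the neighbours Cacna2d1, Pclo and Speer4e were named after their values were seen, and 1 gene that the rule names is not reported here. Positions and exon lengths come from GENCODE M21. Alternatives were DESeq2 1.42.0, limma-voom (limma 3.58.1), upper-quartile or RLE factors, library size alone, testing without a filter or with a mean count of at least 50, non-robust estimation, a threshold of 0.01, a fold of 1.2 (glmTreat), a block for the replicate number, omission of each sample and, chosen after seeing the data, removal of Rn45s and thinning of all libraries to the smallest total. Summaries and figures used pandas 2.3.3 and matplotlib 3.10.9 in Python 3.11.15.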

Additional observations from a re-analysis of the deposited data

How the results depend on the processing

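Over 19 other settings, 13 of the 21 called members kept direction and call in every one (8 higher, 5 lower). The 8 include Sema3a, Sema3c and Nrp1, which led to the choice of the family. Against a fold of 1.2 (glmTreat), 8 members were higher and 5 lower, and 4529 genes were called in all; at an adjusted p under 0.01, 5 members were lower. With each sample left out in turn, 13 to 16 members were higher and 5 to 8 lower (5 without AVP replicate 1), and 7117 to 8219 genes were called. The sign of 2 uncalled members turned: the log2 fold change of Sema4a was 0.0204 with library size alone and ran from -0.0772 to 0.0695 with a sample left out, and that of Sema4f ran from -0.0695 to 0.192; the cause was not tested. Same-numbered samples of the groups deviated together with correlations of only 0.0787, -0.0452 and 0.0384 across genes. Samples with different numbers gave -0.0874 to 0.0530. These values gave no ground for pairing by number, but they cannot show that same-numbered cultures were not set up together. With the replicate number as a block, 13 members were higher and 8 lower and 7941 genes were called. Sema6d and Plxnb3 had too few counts to be tested with the filter.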
